A study of Mus musculus with 4 samples.

Results

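The chemokine ligands Ccl17, Ccl22 and Ccl19 and the chemokine receptors Ccr4, Ccr7 and Ccr8 were examined in single cells of 4T1 mouse mammary tumours. They were chosen by gene symbol and are 6 of the 55450 genes of the deposited matrix. The matrix joined 4 libraries, 1 per sample, of CD45+ sorted cells from BALB/c female mice aged 6 to 8 weeks. The mice carried the tumour in the right flank, from an injection of 1000000 cells of the 4T1 line. They received their injection on day 7 and near-infrared (NIR) light at 980 nm on days 8, 9 and 10, and tumours were taken on day 13. By the protocol, 2 samples received PBS and NIR (PBS+NIR) and 1 received TIOs and NIR (TIOs+NIR). TIOs are liquid-nitrogen-treated cultured mouse macrophages that carry upconverting nanoparticles with the photosensitizer Ce6 and the ferroptosis inducer RSL3. The other sample is titled PBS but its protocol names TIOs, so it was left without a group. The tumour came from 1 implanted cell line in 1 strain, which limits it as a model.

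Cells carried a barcode suffix of 1 to 4, called libraries 1 to 4 here, and no source used here says which suffix is which sample. The treatments were therefore not compared. Values below describe the pooled cells as 1 sample and, where given, the 4 libraries apart, as samples of unknown treatment, with no p-value. Of 33064 barcodes, 32133 had 300 or more genes and at most 15% mitochondrial UMIs (unique molecular identifiers, 1 per captured transcript). The libraries kept 6783 to 8889 cells each, with a median of 2641.5 to 11698 UMIs per cell, and each pair of libraries shared 11 to 23 barcode sequences. Marker gates placed 27757 cells in 21 types, and none of the 6 genes was a marker. Not only blood cells were present after the sort. Fibroblasts were 4334 cells and tumour or epithelial cells 3950, of which 3691 lay in library 1. Levels are given in CPM: counts of the gene summed over a gate, scaled to 1000000 counts of all genes in that gate. Ptprc, which encodes CD45, stood at 19.1 CPM in the fibroblast gate and was found in 61.0% of the mature dendritic cells described below. Library composition differed widely, and 184 of the 218 mature dendritic cells came from library 3.

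Chemokines are small secreted proteins that direct migrating cells through G protein-coupled receptors. Ccl17 and Ccl22 are the ligands of Ccr4, which is known from regulatory and Th2-type T cells. Ccr7 guides mature dendritic cells and naive lymphocytes to lymph nodes along its ligands Ccl19 and Ccl21. Ccr8 is known as a receptor of tumour-resident regulatory T cells and has Ccl1 and, in mice, Ccl8 as ligands.

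Ccl22 and Ccl17 are neighbours on mouse chromosome 8. In GRCm38, Ccl22 (ENSMUSG00000031779) spans chr8:94745590-94751699 and Ccl17 (ENSMUSG00000031780) spans chr8:94810453-94812036, both on the plus strand. The 58754 bases between them hold Cx3cl1 and the pseudogene Gnb1-ps3. Of the 6 genes, 5 had an entry among the RefSeq promoter sequences (GRCm38.p6). The bases just upstream of both ligand genes are shown because both transcripts were highest in the same cells. Capitals mark matches, on either strand, to the kappa-B pattern GGGNNNNNCC, the STAT6 pattern TTCNNNNGAA, the AP-1 pattern TGANTCA or the TATA box pattern TATAA.
Ccl22, 156 bases at chr8:94745434-94745589, plus strand: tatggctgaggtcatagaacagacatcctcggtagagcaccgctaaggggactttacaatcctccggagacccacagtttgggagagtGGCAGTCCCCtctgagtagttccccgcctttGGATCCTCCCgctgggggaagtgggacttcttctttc
Ccl17, 250 bases at chr8:94810203-94810452, plus strand: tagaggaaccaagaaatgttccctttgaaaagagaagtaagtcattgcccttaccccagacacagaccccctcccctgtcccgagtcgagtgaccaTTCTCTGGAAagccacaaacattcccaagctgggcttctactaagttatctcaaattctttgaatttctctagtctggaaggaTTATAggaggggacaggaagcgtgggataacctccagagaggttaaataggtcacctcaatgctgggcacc
The Ccl22 stretch held 2 kappa-B matches, both reading on the minus strand. Of the 32851 RefSeq promoters, 28.8% held a match in the first 156 bases of their entry. The Ccl22 stretch is those bases of its own entry, and their distance from the annotated start can differ between genes. Shares for Ccl17 used the first 250 bases. The Ccl22 stretch held no STAT6, AP-1 or TATA box match. The Ccl17 stretch held 1 STAT6 match, which reads the same way on both strands and was found in 5.85% of promoters, and 1 TATA box match on the minus strand, found in 22.8%. It held no kappa-B or AP-1 match. The marked letters of the pair of stretches thus belonged to different patterns. A match describes letters only and no binding was measured.

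In the pooled cells, mature dendritic cells held most of the Ccl22 and Ccr7 transcripts and the largest single part of Ccl17. This gate of 218 cells was set on 14 markers of dendritic cells that have matured and gained the capacity to migrate, among them Fscn1, an actin-bundling protein, found in 98.6% of the cells. Flt3, the receptor tyrosine kinase of dendritic cells, was found in 71.6%. The class II gene H2-Ab1 stood at 846 CPM here, against 7231 in type 1 and 6909 in type 2 dendritic cells. The mature gate held 83.9% of the 3815 Ccl22 UMIs (95% interval 82.7 to 85.0%), 74.5% of the 8996 Ccr7 UMIs (73.6 to 75.4%) and 39.8% of the 1341 Ccl17 UMIs (37.2 to 42.5%). These intervals, exact binomial here and exact Poisson for levels, cover counting error only. The mature gate held 325 of 670, 353 of 921, 5995 of 7228 and 28 of 177 Ccr7 UMIs in libraries 1 to 4. For Ccl22 it held 177 of 234, 181 of 243, 2842 of 3309 and 0 of 29. For Ccl17 it held 132 of 514, 83 of 359, 319 of 429 and 0 of 39. The tumour or epithelial gate held more Ccl17 in library 1 (247 UMIs), as did type 2 dendritic cells in library 2 (113).

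**Figure D1:**
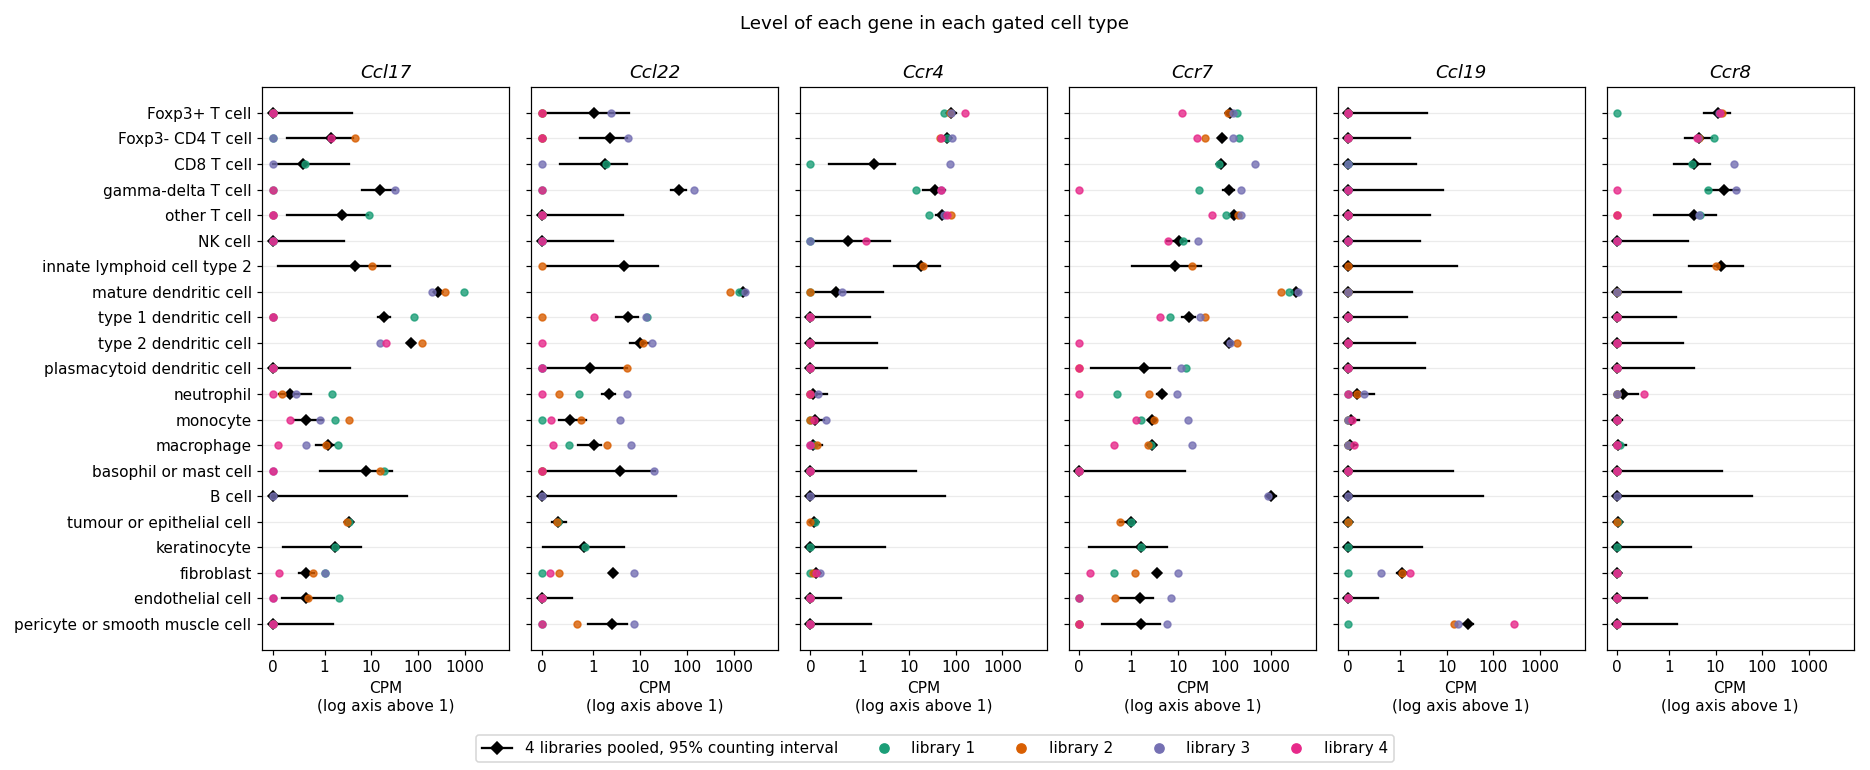
Level of each gene in the 21 gated cell types, in CPM on an axis that is logarithmic above 1. Black diamonds are the pooled cells with 95% counting intervals, and coloured circles are libraries with at least 10 cells of the type. In the pooled cells, Ccl17, Ccl22 and Ccr7 led in mature dendritic cells, Ccr4 in Foxp3+ T cells, Ccl19 in pericytes or smooth muscle cells and Ccr8 in gamma-delta T cells. The Ccr8 lead rested on 7 UMIs, 6 of them in library 3, and its interval overlapped that of the next type. By library, Ccr4 led in Foxp3+ T cells in library 4 only.

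Ccl22 stood at 1595 CPM in mature dendritic cells (1540 to 1651). By library it was 1291 in library 1 (15 cells), 839 in library 2 (17 cells) and 1746 in library 3 (184 cells), and library 4 had 0 UMIs in 2 cells. It was thus high in the 3 libraries with more than a few such cells, and library 3 decided the pooled value, which was 946 without it. Per cell, the median was 9.11 UMIs per 10000 with quartiles of 2.59 and 24.6. The gamma-delta T cell gate came next at 69.0 CPM, but 30 of its 31 UMIs lay in 1 cell of library 3, and the level was 2.32 without that cell. In the same gate Fscn1 stood at 97.9 CPM and was found in 2.08% of the cells. Type 2 dendritic cells had 10.0 CPM and type 1 dendritic cells 5.46. Their intervals overlapped each other and lay far below that of mature dendritic cells.

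Low Ccl22 counts in other cells followed the library. Neutrophils held 5.25 CPM in library 3, and 0.727, 0.345 and 0 in libraries 1, 2 and 4. Fibroblasts held 319 Ccl22 UMIs, of which 299 lay in library 3 and 112 in 1 cell. The part of free RNA in these counts was not tested.

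Ccl17 stood at 266 CPM in mature dendritic cells (244 to 290). By library it was 963 in library 1, 385 in library 2, 196 in library 3 and 0 in library 4. This order rested on single cells. In library 1, 1 cell held 105 of the 132 UMIs, and in library 2, 1 cell held 50 of 83. Without the top cell of each library the levels were 217, 166 and 173, so the spread between libraries became small. The pooled level was 568 without library 3, again with those same cells in it. The median cell held no Ccl17 UMI, and 49.5% of cells held at least 1.

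Type 2 dendritic cells, which present antigen mainly to CD4 T cells, were the next highest for Ccl17 at 71.3 CPM (59.5 to 84.8). Their intervals did not meet those of the neighbours in the order. Library 2 had 120, library 3 had 15.2 and library 4 had 20.2, and library 1 held only 2 such cells. In libraries 3 and 4 a single cell held 4 of 6 and 7 of 9 UMIs. After thinning to 1000 UMIs per cell, Ccl17 was found in 6 of 89 type 2 cells of library 2 (6.74%), 1 of 31 of library 3 (3.23%) and 2 of 39 of library 4 (5.13%), shares whose intervals overlapped. In type 1 dendritic cells, the cross-presenting kind, the level of 18.7 CPM came almost wholly from 1 cell of library 1 with 45 of 48 UMIs, and the level was 1.18 without it.

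Low Ccl17 counts were also spread over many tumour cells. The tumour or epithelial gate held 20.7% of all Ccl17 UMIs, 278 in 237 cells, with at most 3 in a cell and a level of 3.27 CPM. Neutrophils had 0.338 CPM. In library 1, which held most tumour cells, the tumour gate stood at 3.30 CPM, all cells together at 4.74 and neutrophils at 1.45 from 2 UMIs, and the part of free RNA in the tumour cell counts was not tested. Cells that met no gate held a further 13.9% of Ccl17, and among them the cells whose highest marker list was type 2 or mature dendritic cell held 64 and 34 UMIs.

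**Figure D2:**
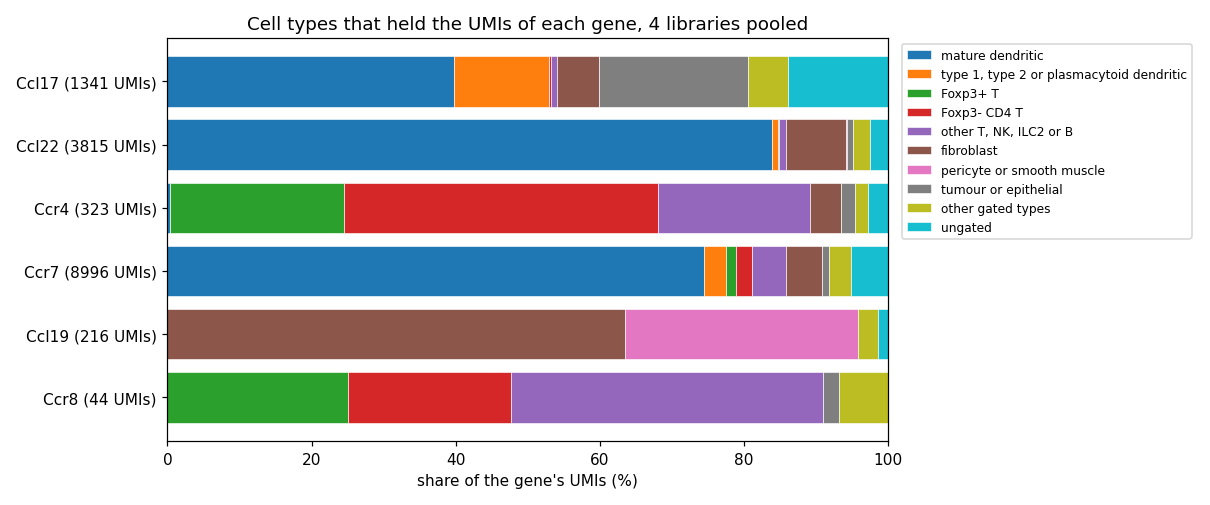
Share of the UMIs of each gene held by each gated cell type and by ungated cells, in percent of the gene's UMIs. In the pooled cells, mature dendritic cells held 83.9% of Ccl22 and 74.5% of Ccr7 but 39.8% of Ccl17. Foxp3- CD4 T cells held 43.7% of Ccr4.

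Ccr7 (chr11:99144196-99155077, minus strand) stood at 3339 CPM in mature dendritic cells (3260 to 3420). It was 2370 in library 1, 1637 in library 2, 3682 in library 3 and 1087 in library 4, where 2 cells held 28 UMIs. It was the only one of the 3 genes with UMIs in the mature gate of all 4 libraries, and the pooled level was 1865 without library 3. It was found in 97.7% of the mature cells, at a median of 33.3 UMIs per 10000 (quartiles 21.7 and 44.7).

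After each cell was thinned to 1000 UMIs, Ccr7 was found in 89.7% of mature dendritic cells, Ccl22 in 58.4% and Ccl17 in 13.1%. In thinned neutrophils, used as a stand-in for the background of free RNA, the shares were 0.373%, 0.137% and 0.0249%. These shares pool libraries in another mix, since 184 of the 218 mature cells came from library 3. Within library 3 the shares were 91.7%, 61.7% and 11.7% in mature cells and 0.850%, 0.390% and 0.0354% in neutrophils. The median depths before thinning were 9141 UMIs in mature dendritic cells and 1823 in neutrophils. All 3 genes were thus found in a larger share of mature dendritic cells than of neutrophils, and free RNA itself was not tested.

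The mature cells were set against type 1 and type 2 dendritic cells together, 218 against 322 cells. Among the 10585 genes with 20 or more UMIs over both gates, 13.9% were at least 2-fold higher and 19.6% at least 2-fold lower in mature cells, with a median log2 difference of -0.09. The 3 of the 6 genes with enough UMIs were all higher. Ccl22 had 3200 UMIs in mature and 32 in the other cells, a log2 ratio of 7.76 (7.26 to 8.31), with 6.57, 6.92 and 6.80 in libraries 1 to 3. The pooled Ccl22 ratio was above that of each library, and 100 of the 322 comparison cells came from library 4, which had 2 mature cells, so the pooled ratio also reflects library composition. Ccr7 had 6701 and 270 UMIs, a log2 ratio of 5.75 (5.58 to 5.93), with 8.45, 3.71, 5.48 and 8.59 in libraries 1 to 4. Ccl17 had 534 and 176 UMIs, a log2 ratio of 2.72 (2.47 to 2.97), with 3.56, 2.44 and 4.64 in libraries 1 to 3. In library 4 the mature cells had no Ccl17 or Ccl22 UMI, and 2 cells are too few for a direction. The Ccl22 ratio varied least between libraries, and the Ccr7 ratio most. The comparison cells held 37, 41, 22 and 61 type 1 cells in libraries 1 to 4. Their type 2 cells numbered 2, 89, 31 and 39. Ccr7 stood at 17.2 CPM in type 1 and 126 in type 2 cells, and the part of this mix in the ratios was not tested. In libraries 1 and 4 the Ccr7 ratio rested on 4 UMIs each in the comparison cells. The pooled log2 ratio of Ccr7 was 7.11 without library 2 and 5.02 without library 3, and that of Ccl17 was 3.47 and 3.59.

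**Figure D3:**
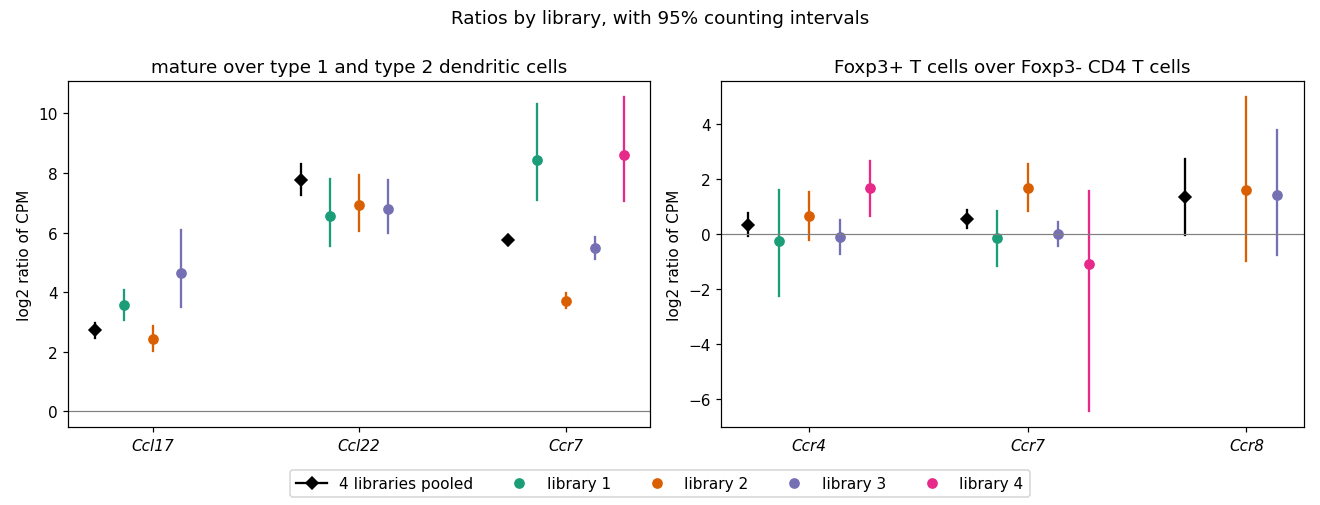
Log2 ratio of the level in mature to that in type 1 and 2 dendritic cells (Ccl17, Ccl22, Ccr7) and of Foxp3+ to Foxp3- CD4 T cells (Ccr4, Ccr7, Ccr8), pooled with 95% counting intervals and by library. Ratios with a gate at 0 are not drawn. The dendritic cell ratios were above 0 in libraries 1 to 3. For library 4 only Ccr7 is drawn, from 2 mature cells, too few for a direction. The ratios of Ccr4 and Ccr7 in T cells lay on both sides of 0.

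Genes of dendritic cell maturation were also higher in the mature gate of the pooled cells. Of 15 genes of that list that were not used by the gate, 13 were higher in mature cells and 1 was lower. Of all genes tested, 13.9% were higher and 19.6% lower. Library 3 gave 184 of the 218 mature cells but 53 of the 322 comparison cells. The genes of this list named here were not compared within libraries, so the part of library composition was not tested. The cytokine subunit Il12b stood at 309 CPM against 9.87. The costimulatory receptor Cd40 stood at 467 against 35.3, the costimulatory receptor Tnfrsf9 at 877 against 6.65 and the NF-kappa-B subunit Relb at 360 against 49.6. Ccl5, a chemokine for T cells, stood at 8873 against 50.5. The lower gene was H2-Ab1, with a log2 ratio of -3.07, and the costimulatory ligand Cd86 was 1.58-fold higher, within the 2-fold limit.

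Other genes of chemokine traffic went both ways in the same pooled cells. Of 13 tested from a list of 27, 6 were higher and 5 lower in mature cells. Without genes used by the gates, 6 of 12 were higher and 4 lower. Over all genes tested, 13.9% were higher and 19.6% lower. Cx3cl1, the neighbour of both ligand genes and itself a chemokine, stood at 53.8 CPM against 1.15. Unlike Ccl22, it was not mainly a transcript of this gate, which held 2.17% of its 4972 UMIs. The next highest of all gated types stood at 43.9 CPM. The atypical receptor Ccrl2 stood at 579 against 128, and the oxysterol receptor Gpr183 at 405 against 145. Cxcr5, S1pr1 and Ccl25 were also higher, from 30, 56 and 31 UMIs. The transcription factor Klf2 stood at 112 against 687. Dpp4, a protease that trims chemokines, stood at 29.4 against 103. Ccr9 and Xcr1 were also lower, and Xcr1 was a marker of the type 1 gate. Of the regulatory T cell list, 6 of 16 genes were higher and 6 lower in mature cells, or 6 and 5 of 14 without genes used by the gates. Il2ra, the high-affinity interleukin 2 receptor chain, stood at 61.3 against 1.15 and was found in 23.9% of mature cells. Of its 123 UMIs there, 98 lay in library 3, and the 15 mature cells of library 1 held none. Of the naive and memory T cell list, 3 of 7 were higher and 3 lower.

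Single mature dendritic cells often held both ligands. Of the 218 cells, 105 held Ccl17 and Ccl22, 3 held Ccl17 alone, 82 held Ccl22 alone and 28 held neither. The product of the shares would give 92.6 cells with both. Cells with both were 9 of 15 in library 1, 7 of 17 in library 2 and 89 of 184 in library 3. After thinning, 21 cells held both, with 16.4 from the product. Depth differed between cells where all UMIs were used, and its part in joint detection was not tested beyond this thinning. With all UMIs, 187 cells held Ccl22 and Ccr7, 26 held Ccr7 alone and 5 held neither, and the product of the shares gives 182.7 cells with both. After thinning, 114 cells held both, with 112.2 from the product, and 11 held Ccl22 alone, so joint detection of this pair was near the product.

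**Figure D4:**
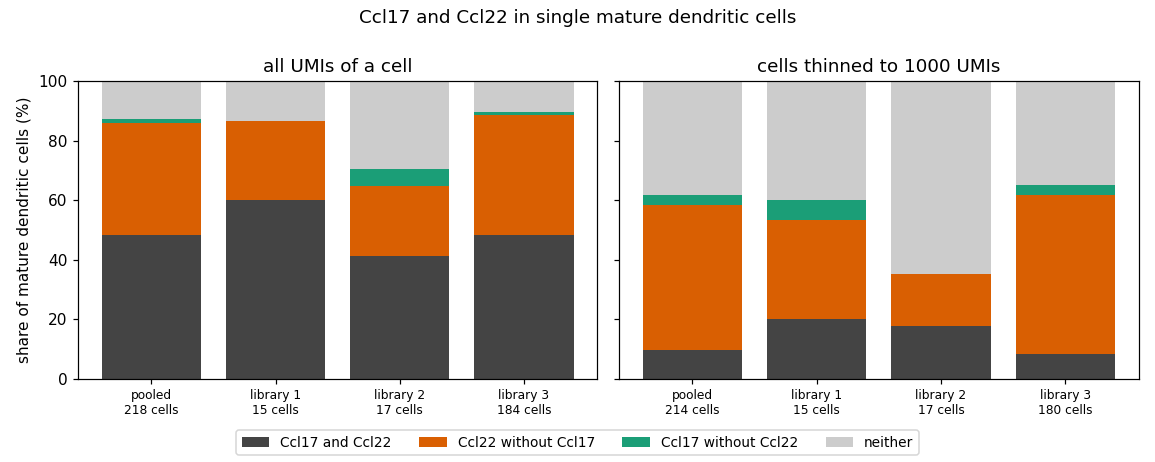
Mature dendritic cells with both ligands, 1 ligand or neither, as percent of the cells of libraries 1 to 3 and of the pooled cells, with all UMIs (left) and after thinning to 1000 UMIs (right). With all UMIs, cells with Ccl17 alone were the rarest class of the pooled cells, 3 of 218, against 82 with Ccl22 alone.

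Outside mature dendritic cells, Ccr7 was highest in the B cell gate, the lymphocytes that make antibody, at 995 CPM (763 to 1276). These were 62 UMIs in 18 of 26 cells, and all 4 libraries held some, between 849 and 1593 CPM. Libraries 1 to 4 had 3, 1, 17 and 5 B cells, so only library 3, at 849 CPM, had more than a few. In libraries 1 and 4 a single cell held 6 of 8 and 8 of 14 UMIs. The next types were other T cells at 160, Foxp3+ T cells at 132, type 2 dendritic cells at 126, gamma-delta T cells at 122, Foxp3- CD4 T cells at 90.1 and CD8 T cells at 85.0. Each neighbouring pair of these 6 overlapped in its counting interval. The pooled CD8 level mostly describes library 1, which held 254 of the 278 CD8 cells, at 74.8 CPM. In library 3, 12 CD8 cells stood at 456 CPM (270 to 721), so the pooled place of CD8 T cells did not hold there. In the gamma-delta gate 1 cell held 32 of 55 Ccr7 UMIs, and the level was 53.3 without it.

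By summed UMIs, library 4 was low in Ccr7 in several types. Type 2 dendritic cells had 185 CPM in library 2 and 132 in library 3, found in 38.2% and 41.9% of cells. In library 4 there was no UMI in 39 such cells, for which the upper bound was 8.26 CPM. Foxp3- CD4 T cells had 207, 38.1, 152 and 26.0 CPM in libraries 1 to 4, and Foxp3+ T cells 187, 121, 153 and 12.3. Library 4 was the lowest in each of these 3 gates, leaving aside the 2 type 2 cells of library 1, although its interval met that of library 2 in Foxp3- cells. After thinning, Ccr7 was found in 1 of 41 Foxp3- cells of library 2 (2.44%) and 5 of 104 of library 4 (4.81%), the reverse order. The Foxp3+ level of library 4 was 1 UMI in 16 cells (0.31 to 68.6 CPM). The B cells of library 4 stood at 1245 CPM, but these were 5 cells, too few for a direction. The level was 666 without the top cell. With 1 library per sample, a difference between libraries and one between their mice cannot be told apart.

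Ccr4 (chr9:114490316-114504916, minus strand) was a T cell transcript in these tumours. Of its 323 UMIs, 43.7% lay in Foxp3- CD4 T cells, 24.1% in Foxp3+ T cells, 13.6% in other T cells and 4.95% in gamma-delta T cells. The level was 81.1 CPM in Foxp3+ T cells, 63.8 in Foxp3- CD4 T cells, 51.5 in other T cells, 35.6 in gamma-delta T cells and 17.6 in type 2 innate lymphoid cells. Neighbours in this order overlapped in their intervals. The order was that of the pooled cells, and by library Foxp3- CD4 T cells were first in libraries 1 and 3, other T cells in library 2 (2 UMIs) and Foxp3+ T cells in library 4. CD8 T cells, the cytotoxic lineage, had 1.76 CPM, and in library 1, with 254 of the 278 CD8 cells, there was none (upper bound 2.30). The pooled CD8 level thus mostly describes library 1. In library 3, 12 CD8 cells held 3 UMIs, 76.0 CPM (15.7 to 222), an interval that met those of Foxp3- CD4 and Foxp3+ T cells there. Neutrophils held 1 Ccr4 UMI in 8577 cells, and the part of free RNA was not tested.

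The Foxp3+ gate, 150 T cells with the regulatory T cell transcription factor Foxp3, was set against 363 CD4 T cells with no Foxp3 UMI. The gates were selected differently, since the Foxp3+ gate asked for no Cd8 transcript but did not ask for Cd4, which was found in 51.3% of its cells and in all of the Foxp3- gate. Foxp3 itself was found in only 53.1% of the same Foxp3+ cells after thinning, so the second gate can hold regulatory T cells whose Foxp3 was not captured. Among the 9323 genes with 20 or more UMIs over both gates, 6.32% were at least 2-fold higher and 7.03% at least 2-fold lower in Foxp3+ cells. Of the 3 receptors tested, 1 (Ccr8) was past 2-fold.

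Ccr4 had 78 UMIs in Foxp3+ and 141 in Foxp3- cells, a log2 ratio of 0.35 whose interval, -0.07 to 0.75, included 0. By library the Foxp3+ level was 54.9, 74.2, 77.5 and 160 CPM, and the Foxp3- level 65.7, 47.1, 83.1 and 49.3. The groups overlapped, and library 4, with 13 UMIs in 16 Foxp3+ cells, gave the largest difference. Its log2 ratio was 1.70 (0.66 to 2.65), and the intervals of libraries 1 to 3 included 0. In library 4, 1 Foxp3+ cell held 6 of the 13 UMIs, and the level was 111 CPM without it. After thinning, 8.84% of Foxp3+ and 6.39% of Foxp3- cells held a Ccr4 UMI. In the pooled cells, a difference in Ccr4 between the gates was not detectable at this depth. Ccr7 had a log2 ratio of 0.55 (0.22 to 0.88), but libraries 1 to 4 gave -0.15, 1.67, 0.00 and -1.08, and the share of cells after thinning was 8.84% in Foxp3+ and 10.0% in Foxp3- cells. The pooled Ccr7 log2 ratio was 1.35 without library 3 and 0.23 without library 4, and the libraries had no common direction.

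**Figure D5:**
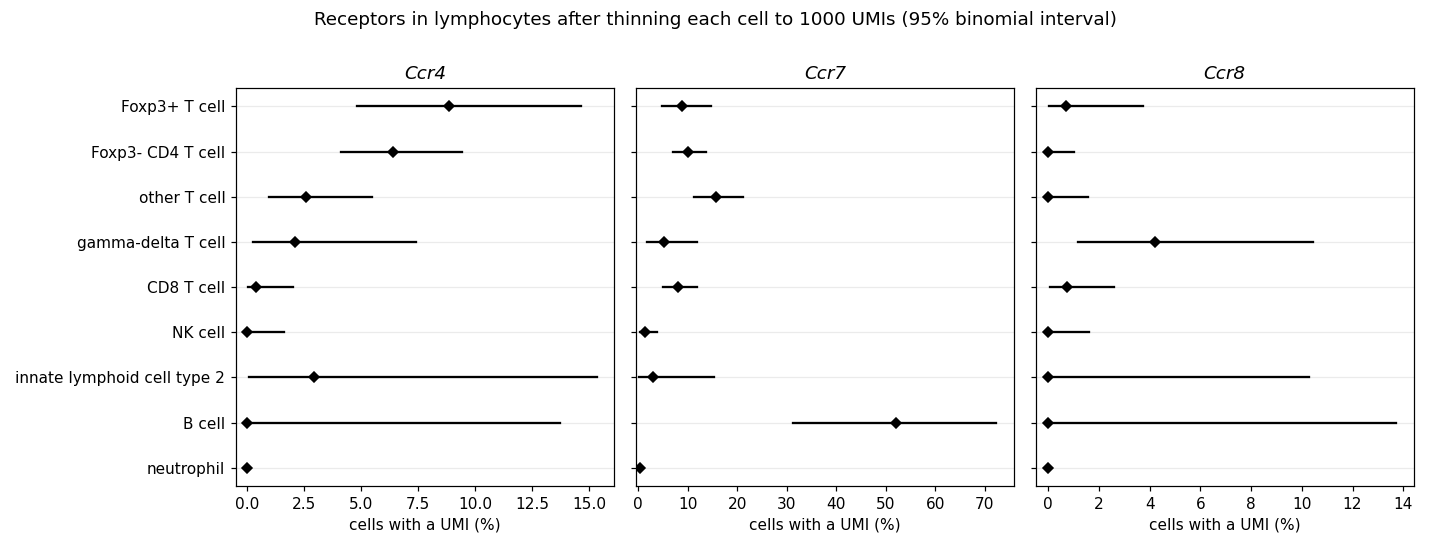
Percent of cells of each lymphocyte gate, and of neutrophils, with a UMI of Ccr4, Ccr7 or Ccr8 after thinning to 1000 UMIs per cell, with exact binomial 95% intervals. The Foxp3+ and Foxp3- CD4 intervals overlapped for all 3 receptors.

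Genes of the regulatory T cell programme were higher in the Foxp3+ gate of the pooled cells. Of 16 regulatory T cell genes not used by the gates, 11 were higher in Foxp3+ cells and none lower. Of all genes tested, 6.32% were higher and 7.03% lower. Il2ra stood at 1154 against 154 CPM, the transcription factor Ikzf2 at 1220 against 47.5 and the inhibitory receptor Ctla4 at 1048 against 203. In libraries 1 to 4, Il2ra stood at 286, 1096, 1423 and 973 CPM in Foxp3+ cells and 150, 184, 144 and 151 in Foxp3- cells. Its log2 ratio in library 1 was 0.93, with an interval of -0.03 to 1.92 that included 0. The other genes named in this paragraph were not compared within libraries. Klrg1, a receptor of differentiated T cells, stood at 174 against 1.81. Of 8 naive and memory genes, 3 were lower, with Tcf7, a transcription factor of naive and memory T cells, at 2.08 against 160. Of 12 other traffic genes, Ccr6 (53.0 against 4.07) and Ccr3 (46.8 against 1.81) were higher. Ccl1 (no UMI against 123 UMIs) and Dpp4 (11.4 against 42.5) were lower. Of the mature dendritic cell list, 5 of 19 were higher and 2 lower, led by Ccl5 at 302 against 34.4.

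Ccr8 (chr9:120092114-120094906, plus strand) was rare, with 44 UMIs in 43 cells and at most 2 in a cell. Foxp3+ T cells held 25% of the UMIs, Foxp3- CD4 T cells 22.7%, gamma-delta T cells 15.9% and CD8 T cells 13.6%. The levels were 15.6 CPM in gamma-delta T cells (6.26 to 32.1, 7 UMIs), 13.2 in type 2 innate lymphoid cells (2.73 to 38.7, 3 UMIs) and 11.4 in Foxp3+ T cells (5.71 to 20.5, 11 UMIs). Foxp3- CD4 T cells had 4.53 (2.17 to 8.32), CD8 T cells 3.52 and other T cells 3.51. All of these neighbours overlapped, so these counts did not set regulatory T cells apart. Library 3 held 6 of the 7 gamma-delta UMIs, and the gate's level was 4.40 without it, below that of Foxp3+ T cells. Foxp3+ cells held 0, 5, 5 and 1 Ccr8 UMIs in libraries 1 to 4 and Foxp3- cells 1, 2, 4 and 3. The pooled log2 ratio was 1.34 with an interval of -0.04 to 2.73.

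Ccl19 (chr4:42754525-42756577, minus strand) was not found in the gated dendritic cells. It had no UMI in the 218 mature dendritic cells, for which the upper bound was 1.84 CPM, and none in the type 1 and type 2 cells. Of its 216 UMIs, fibroblasts held 63.4% and pericytes or smooth muscle cells, the contractile cells of vessel walls, 32.4%. The pericyte gate stood at 28.5 CPM (22.2 to 36.0), from 70 UMIs in 10 of 150 cells. It had 0 in library 1, 14.2 in library 2, 17.3 in library 3 and 273 in library 4. In library 4 a single cell held 34 of 37 UMIs, in library 3 a single cell held all 12, and the pooled level was 14.2 without library 4 and 50.2 without library 2. Fibroblasts stood at 1.11 CPM, with 0, 1.11, 0.63 and 1.65 in libraries 1 to 4, spread over 86 cells. Library 1 had no Ccl19 UMI in any cell.

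The Ccl19 values are uncertain because a near copy, the pseudogene Ccl19-ps1 (chr4:41921405-41923020, plus strand), held 124 UMIs in 80 cells, and 37 cells had both. How reads that fit both genes were counted, or whether they were lost, was not tested. Another Ccr7 ligand gene, Ccl21a (chr4:42772860-42773993, minus strand), had 2165 UMIs in all. Of these, 1878 lay in 13 of the 37 endothelial cells with Prox1, a transcription factor of lymphatic endothelium. Those cells had 5084 CPM in library 2 and 1109 in library 3, none in the 2 cells of library 1, and library 4 had no such cell. Ccl21b had 0 UMIs, and Ccl21c and Ccl21d were not among the genes of the matrix. How reads that fit more than 1 Ccl21 gene were counted was not tested, so the 0 does not show absence.

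For Ccr8, the ligand gene Ccl1 had 377 UMIs, with 94.4 CPM in CD8 T cells and 55.7 in Foxp3- CD4 T cells. Ccl8 had 219953 UMIs, of which 57.6% lay in macrophages, at 3810 CPM. Of the scavenging receptors, Ackr2, which takes up Ccl17 and Ccl22, had 337 UMIs, and Ackr4, which takes up Ccl19 and Ccl21, had 18.

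The genes whose level over the 21 types was most like each member were found by Pearson's r of log2(CPM + 10). These types share libraries, and r follows the few types with high values, so r is a description. For Ccl22 they were Gm37422 (0.99), Nptx2, Insm1, Gm46212 and Scube1 (0.98). For Ccl17 they were Plppr4 (0.95), AC140413.1, Wfdc3, Calcb and Myrf (0.88). For Ccr7 they were Pcgf5 (0.90), Birc2, Il21r, Pfdn5 and Prr14 (0.84), with 2493 to 167331 UMIs each. For Ccr4 they were Gm37039 (0.96), Icos, Gm48314, Nebl and Gm44689 (0.91), and for Ccr8 Gm37881 (0.96), Tnfrsf25, Gm37039, Xlr4a and Il2ra (0.91). For Ccl19 they were Phox2a, Kcnh2, Gucy1a2, Jph2 and Lmod2, all at 1.00.

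Within single libraries many of these r fell. Insm1, a zinc finger transcription factor, kept 0.98, 0.98 and 0.93 with Ccl22 in libraries 1 to 3, and Plppr4 kept 0.93, 0.87 and 0.96 with Ccl17. In library 4 these r were 0.11 and 0.15. Icos, a T cell costimulatory receptor, kept 0.87 to 0.98 with Ccr4 in all 4 libraries. Gm37422 had 0.02 and -0.11 with Ccl22 in libraries 1 and 2. Among the 6 genes, r was 0.87 for Ccl17 with Ccl22, 0.81 for Ccr4 with Ccr8, 0.64 for Ccl22 with Ccr7 and 0.59 for Ccl17 with Ccr7.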

How the data were processed

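Tumour cells sorted for CD45 were profiled with 10x 3' chemistry (v2). The deposited matrix holds raw UMI counts per gene and barcode, which the authors aggregated from 4 libraries with Cell Ranger. The version is 3.0.2 by the design text, 2.1.1 by the processing notes and 6.1.2 by the file header. The build is mm10 by the processing notes, and all 55450 gene identifiers matched GENCODE vM21. The 4 libraries held 69255999 to 108646352 UMIs.

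Cells needed 300 genes and at most 15% UMIs of the 37 mitochondrial genes, which removed 931 barcodes. A marker counted as present in a cell from 0.25 of its mean level over positive cells. A cell joined the type with the highest share of its markers present, if that was at least 40%. These thresholds were set after seeing the data, levels of the 6 genes included. T cells with Foxp3 and no Cd8 transcript formed the Foxp3+ gate. The gamma-delta gate took T cells with any UMI of a gamma-delta receptor gene and no Foxp3, Cd4 or Cd8 transcript. Whether these cells carry that receptor was not tested. T cells that met no subset rule are the other T cells. Doublets were kept, and the closing section says whether levels and ratios moved without the highest scores. Levels are summed UMIs per 1000000 UMIs (CPM). Thinning drew 1000 UMIs per cell with a fixed seed and left out shallower cells. Ratios used a floor of 3 counts where a gate had none. Cells and libraries of unknown treatment are no replicates, so no test was run, and intervals cover counting error only. The genes named are the 6 members, the 5 genes most like each by correlation (at least 50 UMIs) and the genes of 4 lists (chemokine traffic, dendritic cell maturation, regulatory T cells, naive and memory T cells). The values of 1 gene of these lists are not reported here. The members and lists were chosen with earlier results of these data known. On 2750 simulated cells, drawn from the mean profiles of the cells already gated, the same gates recovered 97.1% of lineages. This shows that the gates repeat themselves at these depths, and it cannot show whether the lineages are right. Python 3.11.15, numpy 2.4.6, scipy 1.17.1, pandas 2.3.3, scanpy 1.11.5 and matplotlib 3.10.9 were used.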

Additional observations from a re-analysis of the deposited data

Results flagged for a closer look

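The barcodes removed by the filter on genes and mitochondrial UMIs also held transcripts of these genes. Ccl22 had 10 UMIs in 3 of the 931 removed barcodes, 9.78 CPM against 10.8 in the cells kept. Ccr7 had 24 UMIs in 9 of them, 23.5 CPM against 25.4 in the cells kept. Both are above the 3 counts that a count of 0 allows, and no control exists for these barcodes.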

How the results depend on the processing

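The type with the highest level was the same under 13 of 13 alternatives for every gene but Ccr8, for which it changed under 3. For Ccr8 it was type 2 innate lymphoid cells with a mean over cells, CD8 T cells with a mean over libraries and Foxp3+ T cells without library 3. Only types with 20 or more cells were ranked. The interval of Ccr4 in its leading type, Foxp3+ T cells (64.1 to 101 CPM), overlapped that of Foxp3- CD4 T cells (53.7 to 75.3), so its lead is not firm. A filter of 500 genes, a limit of 10% mitochondrial UMIs, no filter, and removal of the highest 5% of doublet scores left each level and ratio within its interval. The doublet setting removed 23 of the 218 mature dendritic cells. In the leading types named in the report, asking 1 marker more gave 1654 CPM for Ccl22, 3458 for Ccr7 and a Ccr7 log2 ratio of 6.20 between dendritic cells. Leiden clusters made without the 6 genes gave 1713 for Ccl22, 3439 for Ccr7, 5.19 for Ccl19 and log2 ratios of 3.10 for Ccl17 and 5.32 for Ccr7. Of the 227 cells of their mature dendritic cluster, 210 lay in the gate. No cluster was named type 1 dendritic, B or type 2 innate lymphoid cells, so these types could not lead there. The cluster ratios set mature cells against a type 2 dendritic cluster of 920 cells alone, of which 159 lay in the type 2 gate. The clusters named pericyte or smooth muscle held 705 cells, against 150 in that gate. A mean over cells gave 225 for Ccl17 and log2 ratios of 2.38 (Ccl17) and 5.56 (Ccr7), and turned the Ccr7 ratio of Foxp3+ to Foxp3- cells to -0.068. A mean over libraries gave 514 (Ccl17), 1292 (Ccl22), 2563 (Ccr7) and 76.2 (Ccl19), dendritic log2 ratios of 3.27 (Ccl17), 6.74 (Ccl22) and 5.16 (Ccr7), and 0.16 for Ccr7 between Foxp3+ and Foxp3- cells. Thinning gave 243 (Ccl17), 1458 (Ccl22), 53.7 (Ccl19) and 42.1 (Ccr8) CPM, detection of 13.1% (Ccl17), 58.4% (Ccl22), 89.7% (Ccr7) and 8.84% (Ccr4), dendritic log2 ratios of 1.90 (Ccl17), 8.87 (Ccl22) and 5.45 (Ccr7), and turned the Ccr7 ratio of Foxp3+ to Foxp3- cells to -0.26. Asking 2 UMIs gave detection of 28.0% (Ccl17), 75.2% (Ccl22), 9.33% (Ccr4) and 0% (Ccr8). The counts of genes past 2-fold, 1468 higher and 2074 lower in mature dendritic cells and 589 and 655 in Foxp3+ cells, became 4631, 5504, 2949 and 4318 at a minimum of 1 UMI and 701, 1155, 193 and 160 at 100 UMIs. The cause of these shifts was not tested beyond what each setting changes by construction.

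Leaving out 1 library at a time gave 215 to 568 CPM for Ccl17, 946 to 1686 for Ccl22, 1865 to 3544 for Ccr7, 73.8 to 85.3 for Ccr4, 14.2 to 50.2 for Ccl19 and 4.40 to 19.6 for Ccr8. Detection ranged from 48.8 to 50% (Ccl17), 70.6 to 87.6% (Ccl22), 91.2 to 98.5% (Ccr7), 27.6 to 35.8% (Ccr4), 5 to 8.33% (Ccl19) and 2 to 9.38% (Ccr8). The dendritic log2 ratios ranged from 2.25 to 3.59 (Ccl17), 7.26 to 7.99 (Ccl22) and 5.02 to 7.11 (Ccr7), and those of Foxp3+ to Foxp3- cells from 0.06 to 0.75 (Ccr4), 0.23 to 1.35 (Ccr7) and 1.14 to 1.56 (Ccr8). The counts ranged from 1081 to 1456 and 1896 to 2164 in dendritic cells and from 439 to 601 and 540 to 681 in Foxp3+ T cells. No paired analysis was possible because no library could be tied to a sample. Depth limits Ccr8 and Ccl19 most, since they rest on 44 and 216 UMIs.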
